A study of Homo sapiens with 12 samples.

Results

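The 7 genes described here form the prolactin, growth hormone receptor and STAT5 axis: PRL, PRLR, GHR, STAT5A, STAT5B, SOCS2 and CISH. They were taken from the table by gene symbol, 7 of 28901 named genes. The set was chosen by a measured value, the level of PRL, which was far higher in linc-ADAIN knockdown (KD) adipocytes than in scramble controls. The values of the 7 genes in the comparisons of KD with scramble are therefore a description with no test. Calls of other genes there are given only beside the share of all genes called. The responses to lipopolysaccharide (LPS), which the rule of choice did not use, were tested. The members and lists were still chosen with earlier results of these data known, so these tests are not fully independent of the choice.

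The study measured polyA RNA in adipocytes made from ASC52telo hTERT, a commercial line of human adipose-derived mesenchymal stem cells immortalized with telomerase. Stem cells of genotype WT were infected with a lentiviral pLVX-shRNA2 vector that carries ZsGreen and either a scramble shRNA or an shRNA against linc-ADAIN, a long intergenic non-coding RNA of adipose tissue, and ZsGreen-positive cells were sorted. Both populations were then differentiated to day 14 with insulin and dexamethasone throughout and with isobutylmethylxanthine and rosiglitazone in the early phase. The 4 groups were scramble, scramble with LPS, linc-ADAIN KD and linc-ADAIN KD with LPS (100 ng/mL for 4 h), with 3 libraries each. The KD rests on 1 hairpin in 1 cell line, and the 3 libraries of a group are replicates within 1 experiment, so n = 3 counts libraries and a p-value measures only the spread between these libraries. The targeted RNA was not found among the gene names, as linc-ADAIN or as LINC01230, so KD is used as a label and the extent of the knockdown was not checked.

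Prolactin and growth hormone are related hormones that act through PRLR and GHR, receptors of the class I cytokine family. Both receptors signal through the kinase JAK2, which phosphorylates the transcription factors STAT5A and STAT5B, and these in turn induce SOCS2 and CISH, inhibitors that feed back on the same receptors. In fat tissue growth hormone is known for promoting lipolysis, STAT5 proteins for a part in adipocyte differentiation, and human adipose tissue is among the sites outside the pituitary where prolactin is made.

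Counts on named genes totalled 28.4 to 53.8 M per library (M, 1e6), with group medians of 53.5 M for scramble, 40.8 M for scramble with LPS, 38.5 M for KD and 34.8 M for KD with LPS. The adipocyte label was checked against 12 marker genes. ADIPOQ (919 ± 208 CPM, SD, n = 3), FABP4 (1980 ± 258 CPM) and PLIN1 (167 ± 54.6 CPM) were abundant in scramble libraries, whereas LEP (0 to 21 counts per library), LPL (0 to 82 counts) and CIDEA (0 to 5 counts) were at or near 0 in many of the 12 libraries. CPM here is counts per 1e6 after TMM scaling, and it is not corrected for transcript length. In bulk RNA, fewer cells of a type and less RNA per cell cannot be told apart.

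The sequences that bear on the hormone gene and on the best known STAT5 target were read from the reference. PRL (ENSG00000172179) lies at chr6:22287244-22302826 on the minus strand of GRCh38. GENCODE gives its canonical transcript a start at position 22297036, the pituitary-type start, and its most upstream start at 22302826, another 5790 bases upstream. The distal start is the one known for use outside the pituitary. The deposited values are sums per gene, so the start that was used in these cells cannot be told from them. The 300 bases before the distal start, chr6:22302827-22303126, are shown because PRL carries the largest KD difference of the 7 genes. Capitals mark TGACG, the core letters of cAMP response elements.

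PRL, before the distal start: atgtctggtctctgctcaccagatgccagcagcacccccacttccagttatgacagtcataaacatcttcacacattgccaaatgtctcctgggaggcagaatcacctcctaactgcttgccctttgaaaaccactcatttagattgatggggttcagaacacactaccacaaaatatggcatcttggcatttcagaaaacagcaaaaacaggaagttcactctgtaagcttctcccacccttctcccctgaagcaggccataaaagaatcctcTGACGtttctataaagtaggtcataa

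TGACG occurs once in this window, with its first base 26 bases before the start. On either strand it is present in 24.6% of the 35116 RefSeq promoter windows of 300 bases. The forkhead letters TGTTTAC (3.42% of windows) and the STAT5 letters TTCNNNGAA, which read the same on both strands (7.66% of windows), were not found in the PRL window. The RefSeq windows run from 250 bases before to 50 bases after a start, while the PRL window lies wholly before one. G and C bases made up 45.0% of the PRL window, against a median of 58.7% in the RefSeq windows. The motif shares were not adjusted for either difference.

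CISH (ENSG00000114737, chr3:50606489-50611774, minus strand) is shown as the member whose promoter holds the most STAT5 letters. Of the 7 genes, 6 matched a RefSeq promoter entry (GRCh38.p14), with 15 windows from 250 bases before to 50 bases after a start. SOCS2 is named only. TTCNNNGAA was present in 3 of these windows. CISH had 4 copies, at 241, 230, 129 and 112 bases before the start, and 7 of the 35116 windows had at least 4. GHR had 1 copy, TTCAAAGAA, 138 bases before the start of 1 of its transcripts. The canonical PRL start had 1 copy, TTCCTAGAA, 198 bases upstream. The 250 bases upstream of CISH, chr3:50611775-50612024, have the 4 copies in capitals.

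CISH, upstream: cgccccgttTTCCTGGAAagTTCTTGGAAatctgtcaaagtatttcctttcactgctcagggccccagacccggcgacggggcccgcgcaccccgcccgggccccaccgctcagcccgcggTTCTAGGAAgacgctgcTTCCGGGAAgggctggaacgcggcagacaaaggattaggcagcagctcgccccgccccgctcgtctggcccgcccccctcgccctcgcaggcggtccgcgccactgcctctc

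PRL, the ligand, was scarce in scramble adipocytes and abundant after KD. Its level was 4.39, 3.39 and 4.49 CPM in the scramble libraries and 81.5, 95.3 and 112 CPM in the KD libraries. With LPS it was 7.08, 2.08 and 5.11 CPM in scramble and 90.6, 101 and 95.5 CPM in KD. Every KD library lay far above every scramble library, and no value fell between 7.08 and 81.5 CPM. In counts, the scramble libraries held 63 to 277 PRL counts and the KD libraries 2717 to 5136. The log2 fold change of KD against scramble was 4.56 with a standard error (SE) of 0.149 without LPS, a 23.6-fold higher level, and 4.30 (SE 0.272) with LPS, a 19.7-fold higher level. These are the values for which the set was chosen.

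**Figure D1:**
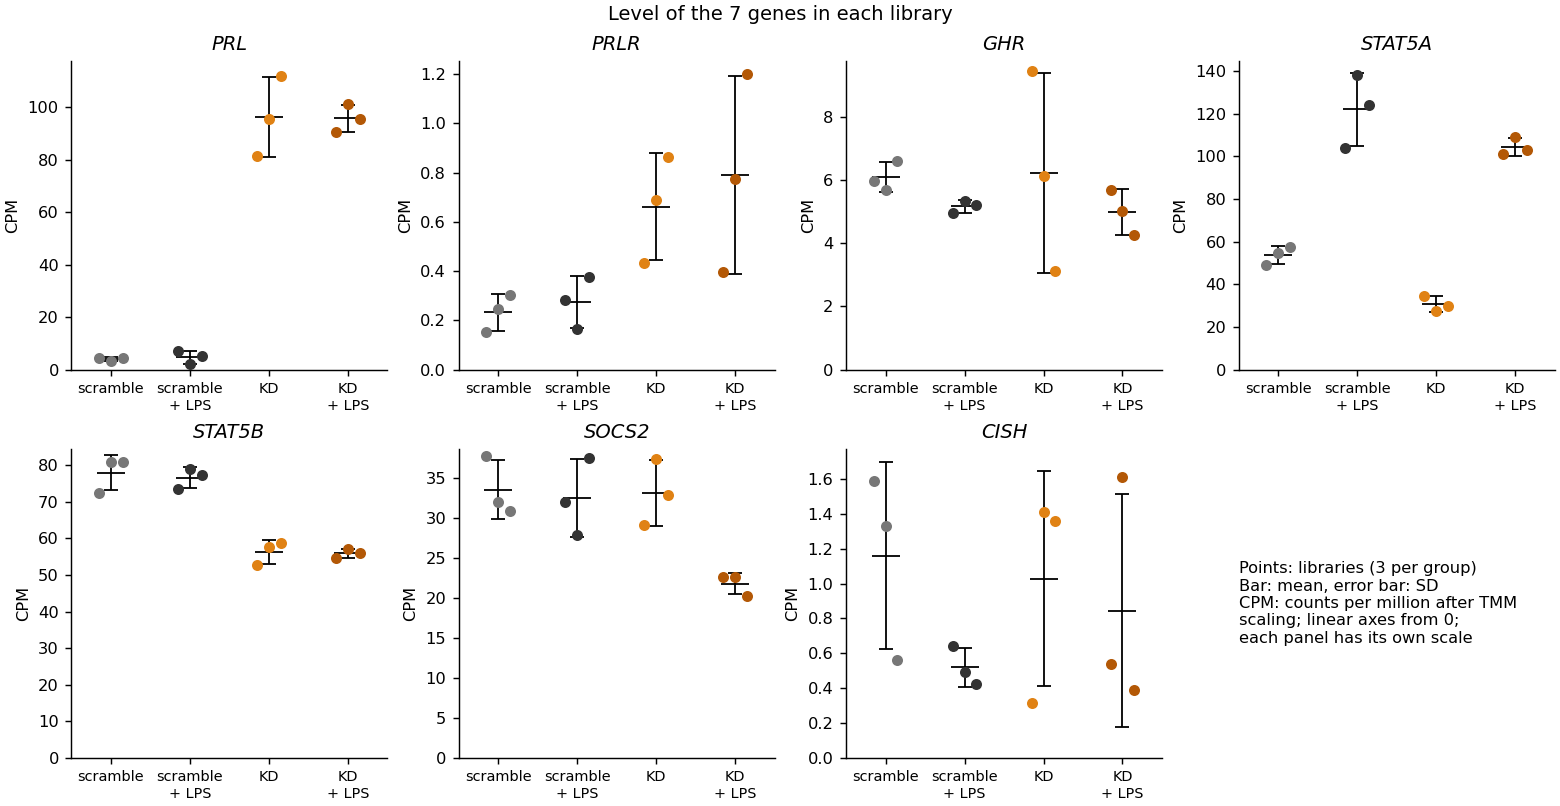
Level of each of the 7 genes in CPM (linear axes that start at 0, a separate scale per gene) in scramble, scramble with LPS, KD and KD with LPS. Points are the 3 libraries of a group, the horizontal mark is their mean and the error bar their SD. PRL stays at or below 7.08 CPM in scramble and at or above 81.5 CPM in KD, and STAT5A is higher in every LPS library than in the matching libraries without LPS.

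No LPS difference was detected in PRL in either background. The log2 fold change of LPS was 0.24 (SE 0.347) in scramble and -0.0063 (SE 0.105) in KD, with adjusted p of 0.72 and 0.98 in edgeR's quasi-likelihood F test. The LPS libraries overlapped those without LPS in both backgrounds. In scramble the library with the fewest counts (63, replicate 2 with LPS) and that with the most (277, replicate 1 with LPS) were in the same group.

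PRLR, the prolactin receptor (ENSG00000113494, chr5:35048756-35230487, minus strand), stayed near the limit of detection in every group. It had 8, 13 and 14 counts in the scramble libraries, 11, 5 and 16 with LPS, 15, 37 and 35 after KD and 14, 36 and 34 after KD with LPS. As levels, scramble lay at 0.152, 0.247 and 0.301 CPM and KD at 0.432, 0.687 and 0.864 CPM. With LPS the values were 0.281, 0.165 and 0.375 CPM in scramble and 0.396, 0.774 and 1.2 CPM in KD. The KD libraries were above the scramble libraries in both comparisons, by a log2 fold change of 1.50 (SE 0.738) without LPS and 1.50 (SE 0.81) with LPS, but each difference is only about as large as 2 standard errors. LPS gave 0.25 (SE 0.859, adjusted p = 0.89) in scramble and 0.25 (SE 0.693, adjusted p = 0.9) in KD.

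GHR, the growth hormone receptor (ENSG00000112964, chr5:42423439-42721878, plus strand), had 5.98, 5.69 and 6.62 CPM in scramble and 4.96, 5.35 and 5.2 CPM in scramble with LPS. In KD it was 9.45, 6.14 and 3.11 CPM, a wider spread than in any other group, and in KD with LPS it was 5.69, 5.03 and 4.25 CPM. KD and scramble overlapped, with log2 fold changes of 0.03 (SE 0.311) without LPS and -0.05 (SE 0.216) with LPS. The same order ran through the adipocyte markers of these libraries, whose summed level was 1970, 1470 and 663 CPM in the 3 KD libraries and 1250, 864 and 536 CPM in the 3 KD libraries with LPS. Their part in the spread of GHR was not tested. LPS in scramble put all 3 libraries below those without it, yet the difference did not pass the test (log2 fold change -0.22, SE 0.168, adjusted p = 0.44). In KD the LPS difference was -0.32 (SE 0.317, adjusted p = 0.63).

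STAT5A (ENSG00000126561, chr17:42287547-42311943, plus strand), a transcription factor activated by JAK2, was the only member that passed the LPS test in both backgrounds. It had 49.2, 54.6 and 57.5 CPM in scramble and 104, 138 and 124 CPM in scramble with LPS. In KD it had 34.7, 27.7 and 29.9 CPM, and in KD with LPS 101, 109 and 103 CPM. LPS libraries lay above all libraries without LPS in each background. STAT5A rose 2.29-fold with LPS in scramble (log2 fold change 1.20, SE 0.106, adjusted p = 1.8e-05) and 3.4-fold in KD (1.76, SE 0.0997, adjusted p = 1.7e-08, edgeR). Without LPS the KD libraries were all below the scramble libraries, by -0.80 (SE 0.105) on the log2 scale. With LPS the groups overlapped and the difference was -0.23 (SE 0.0988).

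STAT5B, the paralog of STAT5A (ENSG00000173757, chr17:42199176-42288633, minus strand), had nearly the same level with and without LPS. Its level was 72.4, 80.9 and 80.8 CPM in scramble and 73.5, 79 and 77.3 CPM in scramble with LPS. It was 52.7, 57.6 and 58.8 CPM in KD and 54.7, 57.1 and 55.9 CPM in KD with LPS. The LPS difference was -0.01 in scramble (SE 0.0775, adjusted p = 0.94) and -0.01 in KD (SE 0.0877, adjusted p = 0.96). All KD libraries were below all scramble libraries in both comparisons, with log2 fold changes of -0.46 (SE 0.0825) without LPS and -0.46 (SE 0.0814) with LPS.

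The paralogs share sequence and position, which limits how well their counts can be separated. Of the 31-base words of the canonical STAT5A transcript, 18.4% also occur in any annotated transcript of STAT5B. Of those of the canonical STAT5B transcript, 13.6% occur in any annotated transcript of STAT5A. No other pair of the 7 genes shared any. The gene bodies overlap by 1087 bases on opposite strands at their 5′ ends. Exons of SOCS2 overlap SOCS2-AS1 and those of CISH overlap MAPKAPK3, each on the opposite strand. The library kit marks strand, but the strand setting of the pseudoalignment is not given in the sources used here, so reads of overlapping genes may not have been told apart.

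SOCS2, a feedback inhibitor of growth hormone signalling (ENSG00000120833, chr12:93569814-93583487, plus strand), was at a like level in 3 groups and lower in the fourth. It had 37.8, 32.1 and 30.9 CPM in scramble, 32.1, 27.9 and 37.6 CPM in scramble with LPS, 29.2, 37.4 and 32.9 CPM in KD, and 22.6, 22.6 and 20.3 CPM in KD with LPS. Every library of KD with LPS was below every other library. SOCS2 fell with LPS in KD to 0.658 of the level without LPS (log2 fold change -0.60, SE 0.119, adjusted p = 0.0035), while in scramble the LPS difference was -0.03 (SE 0.121, adjusted p = 0.91, edgeR). KD against scramble differed by -0.01 (SE 0.115) without LPS and -0.58 (SE 0.125) with LPS. Over the same libraries the summed adipocyte markers were 663 to 1970 CPM in KD and 536 to 1250 CPM in KD with LPS, and their part in the SOCS2 difference was not tested.

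CISH, the inhibitor whose upstream region carries 4 STAT5 motifs, was too low to compare well. Its counts were 84, 70 and 26 in scramble, 25, 15 and 18 in scramble with LPS, 11, 76 and 55 in KD and 19, 75 and 11 in KD with LPS. In CPM this was 1.59, 1.33 and 0.559 in scramble and 0.639, 0.495 and 0.422 with LPS. KD had 0.317, 1.41 and 1.36 CPM and KD with LPS 0.538, 1.61 and 0.387 CPM. The groups overlapped in every comparison, and single libraries of KD differed more from each other than the group means did. LPS gave a log2 fold change of -1.15 in scramble (SE 0.514, adjusted p = 0.18) and -0.27 in KD (SE 0.704, adjusted p = 0.88). KD against scramble gave -0.16 (SE 0.589) without LPS and 0.71 (SE 0.712) with LPS.

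**Figure D2:**
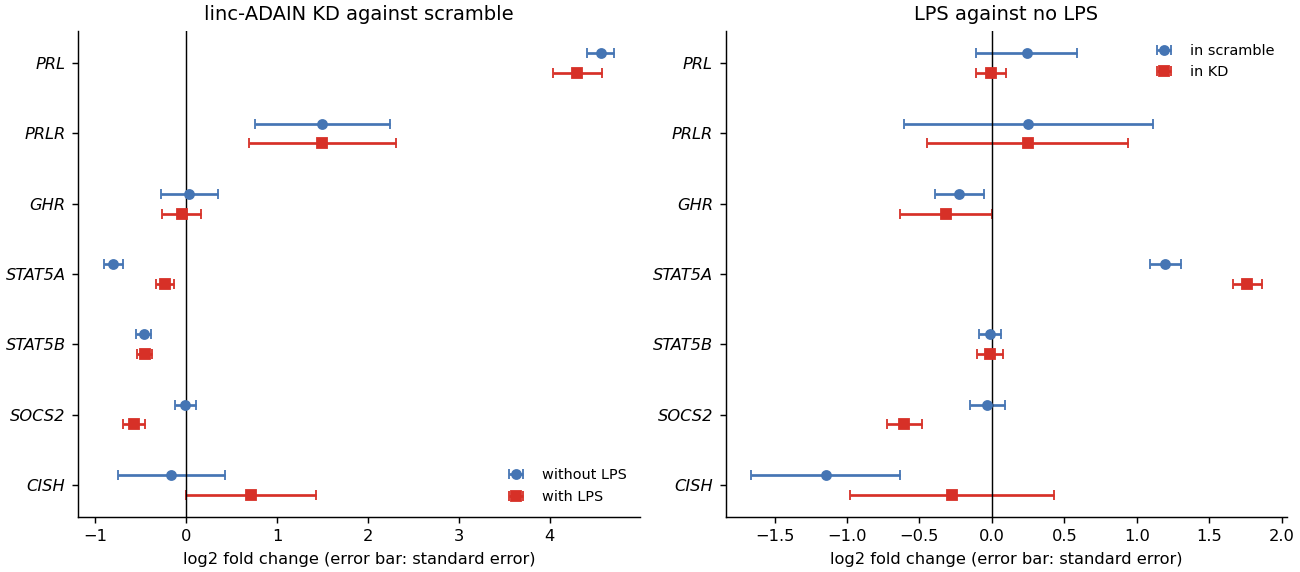
Log2 fold changes of the 7 genes for KD against scramble (left, without and with LPS) and for LPS against no LPS (right, in scramble and in KD). Points are edgeR estimates from 3 libraries against 3 and bars are 1 standard error to each side. PRL stands at 4.56 and 4.30 on the left, and on the right STAT5A stands at 1.20 and 1.76 while SOCS2 stands at -0.03 in scramble and -0.60 in KD.

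Compared per transcript length, the 7 genes had another order in KD than in scramble. In scramble, the mean CPM per kilobase of the canonical transcript was 15.4 ± 0.961 for STAT5B, 14.3 ± 1.12 for STAT5A and 14.1 ± 1.54 for SOCS2 (SD, n = 3), whose libraries overlapped. Per kilobase of the longest transcript STAT5A (12.5) came before STAT5B (10.6) and SOCS2 (9). By the canonical length PRL followed at 4.57 ± 0.682, GHR at 1.24 ± 0.0972, CISH at 0.575 ± 0.267 and PRLR at 0.0201 ± 0.00651, each below all libraries of the gene before it. In KD the mean was 108 ± 17.1 for PRL, above SOCS2 at 13.9 ± 1.72, STAT5B at 11.1 ± 0.634 and STAT5A at 8.17 ± 0.955. GHR (1.27 ± 0.647) and CISH (0.51 ± 0.306) overlapped in KD, and PRLR (0.0571 ± 0.0187) stayed last. With LPS, STAT5A led in scramble at 32.4 ± 4.54 CPM per kilobase, and in KD it was second at 27.6 ± 1.14 after PRL at 107 ± 6.06. By this measure the ligand thus had a high transcript level in KD while its receptor was the lowest of the 7 genes in every group. The canonical PRLR transcript of 11581 bases is also its longest, so the other length could not test this rank. In CPM, PRLR overlapped CISH in KD (0.432 to 0.864 against 0.317 to 1.41) and in KD with LPS (0.396 to 1.2 against 0.387 to 1.61). It did not overlap CISH in scramble with or without LPS.

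**Figure D3:**
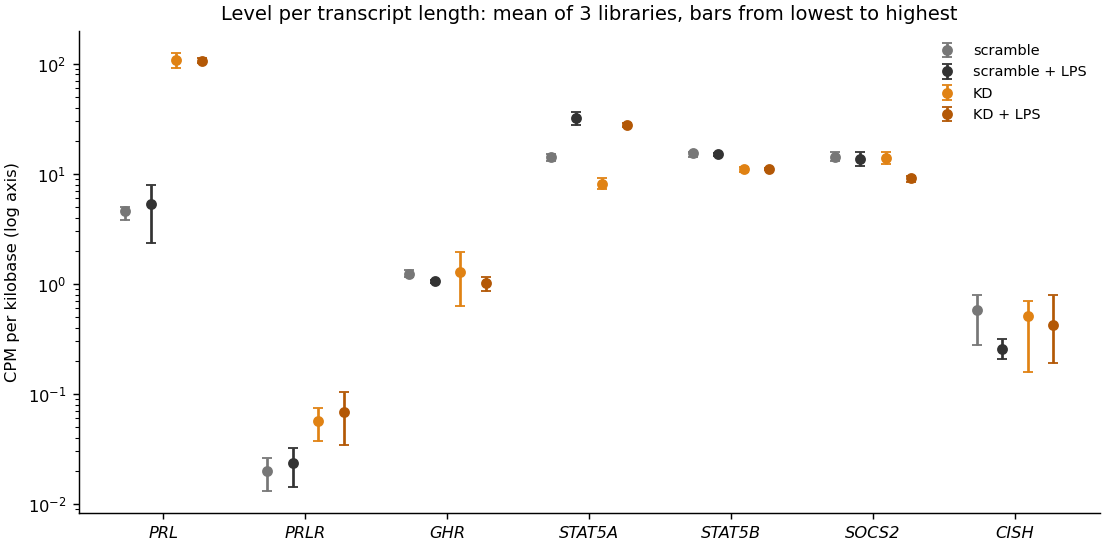
Mean CPM per kilobase of the canonical transcript for the 7 genes in the 4 groups on a log axis, with bars from the lowest to the highest of 3 libraries. PRL moves from a mean of 4.57 in scramble to 108 in KD, and PRLR is at most 0.104 in any library.

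The members that passed are given here beside the share of all genes that did. In KD without LPS 3 of the 7 passed an adjusted p of 0.05 (1 higher, PRL, and 2 lower, STAT5A and STAT5B), beside 27.2% of 16217 genes (12.1% higher and 15.1% lower). With LPS 3 passed (PRL higher, STAT5B and SOCS2 lower), beside 26.9% of 15981 genes (12.7% higher and 14.2% lower). Since the KD contrast chose the set, nothing is read from these counts. KD and scramble libraries did not overlap for 4 members without LPS (PRL, PRLR, STAT5A and STAT5B) and for 4 with LPS (PRL, PRLR, STAT5B and SOCS2), as they did not for 42.5% and 40.6% of all genes. In the LPS comparisons 1 of 7 passed in scramble (STAT5A, higher), beside 14.3% of 15920 genes (5.9% higher and 8.38% lower), and 2 of 7 passed in KD (STAT5A higher, SOCS2 lower), beside 11.3% of 16169 genes (5.32% higher and 6.03% lower). The median log2 fold change of the 7 members was -0.01 in KD without LPS, -0.05 with LPS, -0.01 for LPS in scramble and -0.01 for LPS in KD, where that of all genes was 0.02, 0.03, 0.02 and 0.01.

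Whether KD changed the LPS response was tested by an interaction over all 12 libraries. None of the 7 members passed in edgeR, against 1.28% of 17173 genes, although 2 had an unadjusted p under 0.05 and DESeq2 called 1, STAT5A. The LPS response of STAT5A was larger in KD by 0.58 on the log2 scale (SE 0.148, adjusted p = 0.068), and in DESeq2 the adjusted p was 0.015. It also passed in edgeR with no filter on low counts (0.57, adjusted p = 0.015), where 431 genes passed in all, and without scramble with LPS replicate 2 (0.68, adjusted p = 0.034) or without KD replicate 1 (0.67, adjusted p = 0.047). For SOCS2 the response was lower in KD by a difference of -0.56 (SE 0.175, adjusted p = 0.16). So SOCS2 passed the LPS test in KD and not in scramble, but the difference between the backgrounds did not pass. The interaction was -0.25 (SE 0.331, adjusted p = 0.88) for PRL, 0.89 (SE 0.919, adjusted p = 0.82) for CISH, and between -0.08 and 0.01 with adjusted p of 1 for GHR, PRLR and STAT5B. The comparisons share libraries, the scramble libraries entering both the KD comparison without LPS and the LPS comparison in scramble, so their values are set side by side only.

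Other genes of the pathway and of PRL gene regulation were taken as 8 lists with 71 genes, grouped by role. The lists were chosen with earlier results of these data known, so the shares passing are a description. In KD without LPS 21 of the 58 tested passed (7 higher, 14 lower, 36.2%, beside 27.2% of all genes), and with LPS 26 of 56 (11 higher, 15 lower, 46.4%, beside 26.9%). For LPS in scramble 17 of 56 passed (8 higher, 9 lower, 30.4%, beside 14.3%) and for LPS in KD 18 of 56 (10 higher, 8 lower, 32.1%, beside 11.3%). Of the 58 tested for the interaction 1 passed, IGF1 (1.72%, beside 1.28%). These shares of all genes are the background of each list count that follows. Their median log2 fold changes were -0.03, -0.07, 0.05, -0.02 and -0.03 in that order.

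No transcript of the partner hormones was detected. GH1 and GH2, which encode growth hormones, and CSH1, CSH2 and CSHL1, which encode placental lactogens or a related product, had 0 counts in all 12 libraries, and a count of 0 allows up to 3 counts in a library. This limit covers counting error only.

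Among the kinases and adaptors, JAK2, the kinase bound to both receptors, rose with LPS in both backgrounds. Its level was 16.4 ± 1.23 CPM in scramble and 32.3 ± 3.91 CPM with LPS (log2 fold change 0.99, SE 0.113, adjusted p = 0.00012), and 13.2 ± 2.84 CPM in KD and 27.9 ± 2.11 CPM with LPS (1.07, SE 0.151, adjusted p = 0.00022). SH2B3, an adaptor that restrains JAK2 signalling, fell in both, by -0.90 (SE 0.0791, adjusted p = 1.8e-05) in scramble and -0.87 (SE 0.0788, adjusted p = 3.1e-06) in KD. The tyrosine kinase SRC fell with LPS in scramble (-0.82, SE 0.107, adjusted p = 0.00035). SRC also fell in KD (-0.44, SE 0.11, adjusted p = 0.017), a call lost without KD replicate 1 (adjusted p = 0.073) or 3 (0.057) or without KD with LPS replicate 1 (0.05) or 3 (0.083). In KD without LPS 2 of 8 passed, both lower, and with LPS again 2 of 8, both lower, beside 15.1% and 14.2% of all genes lower.

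The other receptors of the family included IL7R, the interleukin-7 receptor chain, which rose with LPS in scramble from 17.2 ± 1.07 to 40.4 ± 2.19 CPM (log2 fold change 1.25, SE 0.0945, adjusted p = 5.5e-06). It was the only receptor of the 4 tested that passed there. In KD it rose by 0.80 (SE 0.146, adjusted p = 0.0019). Among the other STAT genes, STAT4, which carries interleukin-12 signals, was low, with 0.397 ± 0.0815 CPM in scramble, 1.19 ± 0.402 in scramble with LPS, 1.79 ± 0.339 in KD and 5.42 ± 0.846 in KD with LPS. It rose with LPS in KD by 1.60 (SE 0.275, adjusted p = 0.0012), the difference in scramble was 1.59 (SE 0.505, adjusted p = 0.057, and 0.02 in DESeq2), and with LPS it was 2.19 (SE 0.321) higher in KD than in scramble.

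Of the other 6 SOCS genes, 3 passed in KD without LPS and 1 with LPS, all lower, beside 15.1% and 14.2% of all genes. SOCS3 was among the 3, with an adjusted p of 0.047 that rose to 0.05 or above in 8 of 13 alternatives. SOCS3, an inhibitor of interleukin-6 type signals, was 58.7 ± 10.3 CPM in scramble, 63.7 ± 10.1 in scramble with LPS, 43.7 ± 8.06 in KD and 39 ± 9 in KD with LPS. Against scramble it was -0.42 (SE 0.144) without LPS and -0.71 (SE 0.153) with LPS. LPS gave 0.13 (SE 0.136, adjusted p = 0.61) in scramble and -0.16 (SE 0.158, adjusted p = 0.61) in KD. SOCS1 had 7 to 30 counts per library. Of the 8 phosphatases and PIAS proteins, 2 of the 7 tested passed for LPS in scramble and 2 of 8 for LPS in KD. Both times 1 passed in each direction, beside 14.3% and 11.3% of all genes.

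Of the genes that growth hormone or STAT5 are known to regulate, 13 were tested in KD against scramble. Without LPS 7 passed, all lower, and with LPS 9 passed (2 higher, 7 lower), where 15.1% and 14.2% of all genes were lower. The list was not split by the direction of that regulation, so these counts do not measure STAT5 activity. PDK4, a kinase that restrains pyruvate oxidation, was 303 ± 80 CPM in scramble and 91.4 ± 48.4 CPM in KD (log2 fold change -1.72, SE 0.331). With LPS it was 652 ± 23.5 and 115 ± 36.6 CPM (-2.51, SE 0.168). FASN, the fatty acid synthase, was 775 ± 51.9 CPM in scramble and 340 ± 39.7 CPM in KD (-1.18, SE 0.0941), and with LPS 694 ± 89.9 and 209 ± 22.1 CPM (-1.73, SE 0.103). Both are genes of adipocyte metabolism, and the list also holds PPARG, which is among the adipocyte markers. The summed adipocyte markers, 3320 to 4560 CPM in scramble and 663 to 1970 CPM in KD, moved the same way, and their part in these differences was not tested. With LPS, 6 of 13 passed in scramble (2 higher, 4 lower) and 7 of 13 in KD (2 higher, 5 lower). PDK4 rose in scramble by 1.12 (SE 0.146, adjusted p = 0.00032), with a difference of 0.33 in KD (SE 0.307, adjusted p = 0.59), and BCL2L1, an inhibitor of apoptosis, fell by -0.80 (SE 0.099, adjusted p = 0.00023). BCL2L1 also fell in KD, by -0.34 (SE 0.0775, adjusted p = 0.01), but not without KD with LPS replicate 3 (adjusted p = 0.059). The cell cycle gene CCND1 fell in both backgrounds, by -0.55 in scramble (SE 0.107, adjusted p = 0.005) and -0.58 in KD (SE 0.0904, adjusted p = 0.00052). FASN fell in KD by -0.71 (SE 0.0957, adjusted p = 0.00016), and its LPS difference in scramble was -0.15 (SE 0.0974, adjusted p = 0.38). In edgeR the interaction had an adjusted p of 0.087 for BCL2L1 and of 0.087 for FASN, and in DESeq2 of 0.018 and 0.011.

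IGF1, the growth factor best known as a target of growth hormone through STAT5, had the only interaction of the lists that passed. Its level was 98.4 ± 20.7 CPM in scramble, 201 ± 28.7 in scramble with LPS, 126 ± 19.1 in KD and 138 ± 18.5 in KD with LPS. LPS raised it in scramble by 1.04 (SE 0.144, adjusted p = 0.00049), while in KD the difference was 0.13 (SE 0.115, adjusted p = 0.55). The interaction was -0.90 (SE 0.203, adjusted p = 0.035, edgeR). It was -0.76 to -1.07 when each library was left out, and 8 of those 12 fits did not pass. Against scramble, KD was 0.36 (SE 0.145) without LPS and -0.54 (SE 0.115) with LPS.

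**Figure D4:**
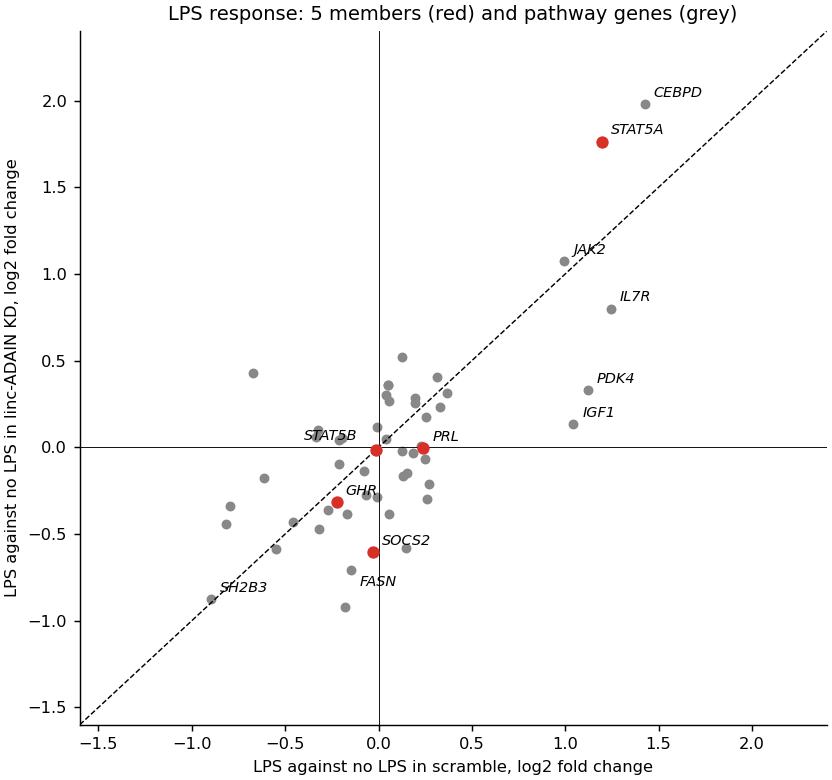
Log2 fold change of LPS against no LPS in scramble (horizontal) and in KD (vertical) for the 53 genes whose mean count reached 50 in both comparisons, 5 of the 7 members in red (PRLR and CISH are below this mean) and 48 pathway genes in grey. The dashed line marks equal responses. STAT5A lies at 1.20 and 1.76, SOCS2 at -0.03 and -0.60, and IGF1 at 1.04 and 0.13.

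Of the genes known to regulate PRL transcription, 5 of 12 tested passed in KD without LPS (3 higher, 2 lower) and 7 of 11 with LPS (3 higher, 4 lower), beside 27.2% and 26.9% of all genes. CREM, a factor that binds cAMP response elements, was 10.2 ± 0.143 CPM in scramble and 23.6 ± 3.2 CPM in KD (log2 fold change 1.22, SE 0.125), and the difference with LPS was 0.67 (SE 0.168). CREB1, which binds the same elements, went the other way, at -0.89 (SE 0.105) without LPS and -0.49 (SE 0.0959) with LPS. It was named after its values were seen. The homeobox gene HOXA10 was 3.8 ± 1.23 and 7.72 ± 1.13 CPM (1.02, SE 0.248), a call that was not kept when all 12 libraries shared the fit (adjusted p = 0.15). With LPS the HOXA10 difference was 0.29 (SE 0.575) and the groups overlapped. PRKAR2B, a regulatory subunit of the cAMP-dependent protein kinase, was lower in KD by -1.41 (SE 0.337) without LPS and -1.88 (SE 0.24) with LPS. ATF4, a stress-response factor, was higher in KD by 0.67 (SE 0.0763) without LPS and 0.94 (SE 0.0734) with LPS. CEBPD, an early factor of adipogenesis and inflammation, rose with LPS from 63.4 ± 1.98 to 169 ± 24.5 CPM in scramble (1.42, SE 0.0992, adjusted p = 3e-06) and from 58 ± 4.26 to 229 ± 24 CPM in KD (1.98, SE 0.0927, adjusted p = 2.2e-09). DRD2, POU1F1 and TRH, which act on PRL in the pituitary, had 0 counts in all libraries.

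Markers of other cell types were set beside PRL. The pituitary list was near 0, with 7 of its 8 genes in the table at or below 3 counts in every library and a sum of 0 CPM in each KD library. Of the decidual stromal markers, genes of the cells that make PRL in the uterus, IGFBP1 was at 0 in every library. PGR (0 to 5 counts per library) and WNT4 (0 to 16 counts) were at 0 in every KD library but low in scramble too. SST had 0 to 7 counts, LEFTY2 0 to 10 counts and IL15 68 to 186 counts per library. The summed level of that list was 511 to 1030 CPM in scramble with or without LPS and 64.5 to 124 CPM in KD, mostly HSD11B1, while BMP2, a growth factor of the same list, was 6.5 ± 1.9 CPM in scramble and 18.8 ± 0.31 CPM in KD. The 12 adipocyte markers summed to 3320 to 4560 CPM in scramble and 663 to 1970 CPM in KD. Of the 11 tested, 8 passed as lower in KD, beside 15.1% of all genes lower. With LPS the sums were 3840 to 4460 and 536 to 1250 CPM. The 10 stromal markers summed to 6080 to 7510 CPM in scramble and 8730 to 10300 CPM in KD. Of the 10 tested, 5 passed as higher and 3 as lower, beside 12.1% and 15.1% of all genes. DCN made up much of that sum, with a mean of 2670 CPM in scramble and 4900 CPM in KD, while THY1 (means of 764 and 148 CPM), ENG (285 and 111 CPM) and PDGFRB (977 and 523 CPM) were lower in KD. The 9 macrophage markers summed to 5.75 to 7.63 CPM in scramble and 57.2 to 87.3 CPM in KD, nearly all of it CD163, while TYROBP and AIF1 were at 0 in every library. In KD 1 of the 6 tested passed without LPS and 2 of 5 with LPS, all higher, beside 12.1% and 12.7% of all genes higher. CD14 was the other one with LPS, at means of 0.348 CPM in scramble and 2.25 CPM in KD. The 6 endothelial markers summed to 23.6 to 27.1 CPM in scramble and 11.8 to 12.3 CPM in KD, and the 5 epithelial markers to at most 1.24 CPM in any library. With LPS the endothelial sums were 15.3 to 17 and 8.45 to 13.2 CPM. Of the 4 endothelial markers tested, 2 passed without LPS, both lower, and 4 with LPS, 3 lower and 1 higher, beside 27.2% and 26.9% of all genes. The higher one was KDR, at 0.107 ± 0.0801 CPM in scramble with LPS and 3.12 ± 0.987 CPM in KD with LPS. The part of these shifts in the KD differences of PRL, STAT5A and STAT5B was not tested.

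**Figure D5:**
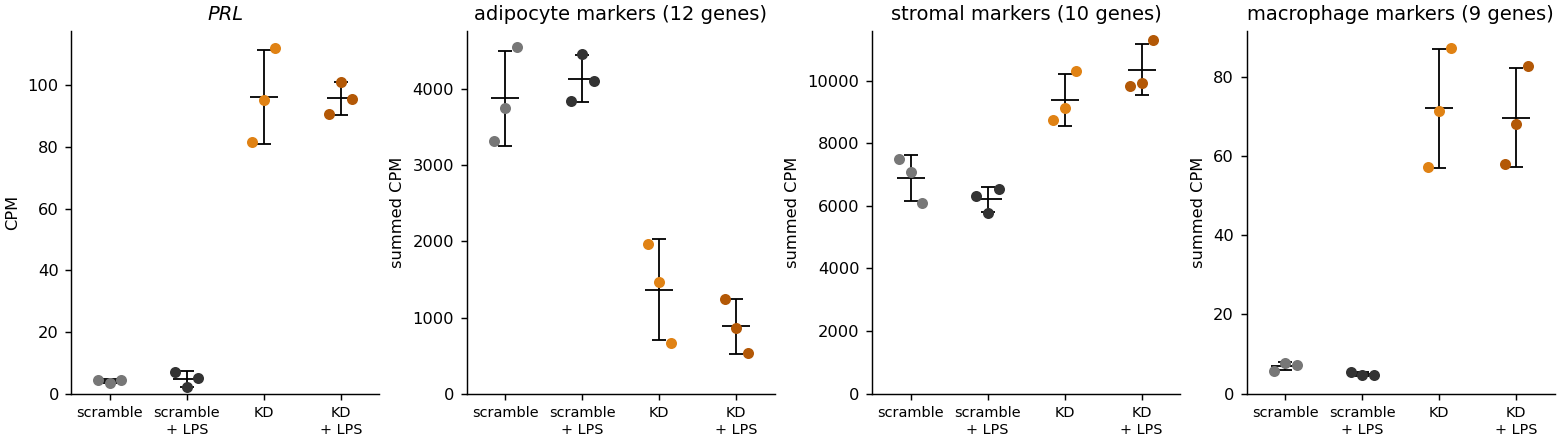
PRL in CPM beside the summed CPM of the adipocyte, stromal and macrophage markers in the 4 groups (linear axes from 0). Points are libraries, with mean and SD of 3. In KD, PRL (81.5 to 112 CPM) and the macrophage sum (57.2 to 87.3 CPM, mostly CD163) are high and the adipocyte sum (663 to 1970 CPM) is low.

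Several genes had a profile over the 12 libraries close to that of PRL. Likeness was the root mean square difference of log2 CPM, centred on the scramble mean, over the 11810 genes whose mean count reached 50. The 5 closest were SCG5 (0.513), CD163 (0.575), SAA2 (0.581), FNDC1 (0.586) and MAOB (0.659). SCG5, a secretory-granule chaperone, was 3.99 ± 1.32 CPM in scramble, 2.33 ± 1.15 in scramble with LPS, 77.6 ± 19 in KD and 80.6 ± 16.7 in KD with LPS. CD163, a scavenger receptor for haemoglobin bound to haptoglobin, was 4.33 ± 1.12, 3.79 ± 0.881, 68.6 ± 13.7 and 66 ± 12 CPM in the same order. SAA2, an acute-phase protein whose near-identical paralog makes its counts uncertain, was 5.91 ± 2.03, 6.81 ± 0.389, 86.2 ± 4.21 and 109 ± 11.4 CPM. FNDC1 was 1.03 ± 0.54, 1.88 ± 1.67, 15.5 ± 5.87 and 23 ± 7.07 CPM, and MAOB, a mitochondrial amine oxidase, 0.509 ± 0.0642, 0.496 ± 0.153, 9.15 ± 3.17 and 16.5 ± 3.45 CPM. In KD the means of SCG5, SAA2, FNDC1 and MAOB were higher with LPS than without it, and that of CD163 was lower. Those of PRL in KD were 96.3 ± 15.3 CPM without LPS and 95.9 ± 5.42 CPM with it. These differences of the 5 genes were not tested here. With a minimum mean of 10 counts IL24 (0.525) entered the 5 and 4 of them were shared.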

How the data were processed

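The authors pseudoaligned reads to human transcripts (GRCh38) with kallisto 0.44.0 after bcl2fastq 2.19, per the labels, and deposited estimated counts per gene name, not normalized for depth or length. These whole-number values were rounded, and a row without a name (0.235% to 0.306% of a library) was left out. In R 4.3.3, edgeR 4.0.16 scaled libraries by TMM, dropped genes whose counts summed to under 10 across the libraries fitted, and tested the rest by its quasi-likelihood F test, two-sided, with Benjamini-Hochberg adjustment over all genes, for each comparison on its 6 libraries and for the interaction on 12. The SE is the size of the log2 fold change divided by the square root of F. Group means are of CPM ± SD (n = 3). The members and lists were chosen with earlier results of these data known.

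Named genes were the 7 members, IGF1, JAK2, SOCS1, SOCS3, GH1, GH2, CSH1 and CSH2, and in each comparison up to 3 rising and 3 falling list genes with the largest change among those passing and a mean count of 50 or more, plus the 5 genes most like PRL. Some genes that this rule names are not reported here. The genes listed at 0 counts, the markers named singly, CREB1, IL24 and the second comparison of a list gene were chosen after their values were seen. DESeq2 1.42.0, other scalings, filters, a fit on all libraries, a replicate block and leaving out libraries were the alternatives. The steps were tested on simulated data. Positions come from GENCODE 44 and promoter sequences from RefSeq (GRCh38.p14), and the PRL distal window from GRCh38.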

Additional observations from a re-analysis of the deposited data

Results flagged for a closer look

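The LPS response of IGF1 differed between scramble and KD in a test of the difference itself. The interaction was -0.90 on the log2 scale (SE 0.203, adjusted p = 0.035 in edgeR's quasi-likelihood test over 12 libraries), with a response of 1.04 in scramble and 0.13 in KD. The adjusted p was 0.00045 without the filter on low counts, 0.0011 in DESeq2 and 0.051 with edgeR's own filter. When each library was left out it ran from 0.0092 to 0.11, and 8 of the 12 fits did not pass: those without scramble replicate 2 (adjusted p = 0.11) or 3 (0.061), scramble with LPS replicate 1 (0.085) or 3 (0.065), KD replicate 1 (0.086) or 2 (0.084), and KD with LPS replicate 2 (0.09) or 3 (0.11). The direction was the same in each of them. No cause was tested.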

How the results depend on the processing

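Of 35 results on members (7 genes in 5 comparisons), 15 kept direction and side of the threshold in every alternative run. The LPS responses of STAT5A in both backgrounds and of SOCS2 in KD were among them. So were the KD differences of PRL, PRLR and STAT5B, but the KD contrast chose the set, so nothing is read from these. In 18 results, each with an estimate that did not pass, the sign turned in at least 1 alternative. The KD difference of STAT5A with LPS, a description like the other KD values, crossed the threshold with the replicate block (-0.22). It also did so without scramble with LPS replicate 1 (-0.33). SOCS3 in KD without LPS did not pass in 8 of 13 alternatives (adjusted p 0.051 to 0.21), whose cause was not tested.

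With library size only, the log2 fold change was 0.0935 for SOCS2 in KD without LPS, 0.0346 for GHR in KD with LPS, and -0.0122 for STAT5B and -0.0258 for PRLR in the interaction. For the PRLR interaction it was -0.0028 without the filter on low counts, -0.0045 with filterByExpr, -0.0114 in DESeq2 and -0.0803 with the replicate block. The block gave -0.0812 for GHR in KD without LPS and 0.0046 for PRL in the LPS comparison in KD.

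When each library was left out, KD without LPS ran from -0.39 to 0.36 for GHR, -0.11 to 0.0809 for SOCS2 and -0.51 to 0.25 for CISH. KD with LPS ran from -0.15 to 0.0484 for GHR and -0.17 to 1.05 for CISH. LPS in scramble ran from -0.16 to 0.59 for PRL, -0.0399 to 0.50 for PRLR, -0.0619 to 0.0157 for STAT5B and -0.15 to 0.0667 for SOCS2. LPS in KD ran from -0.12 to 0.11 for PRL, -0.18 to 0.57 for PRLR, -0.65 to 0.099 for GHR, -0.0648 to 0.0104 for STAT5B, -1.15 to 0.0594 for CISH and -0.0344 to 0.73 for PDK4, which passed with the replicate block (0.44). The interaction ran from -0.58 to 0.13 for PRL, -0.41 to 0.31 for PRLR, -0.42 to 0.34 for GHR and -0.0313 to 0.0652 for STAT5B.

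The interaction called 1 member without the filter and 1 in DESeq2, 0 to 1 when a library was left out, and 431 and 475 genes in all, against 92 to 243 when a library was left out. LPS in scramble called 1187 to 2106 genes when a library was left out. Whether replicate numbers pair the libraries was not settled, with correlations of same-numbered deviations of -0.1 to 0.246. For LPS in KD they were 0.109, -0.0706 and 0.125, against at most 0.013, 0.0611 and 0.0563 for other numbers. For LPS in scramble they were 0.246, 0.0735 and 0.055, against at most -0.132, 0.0906 and 0.0623. The replicate block gave 4 members for KD with LPS and 0 for the interaction (231 genes). It gave 1 for LPS in scramble (3260 genes, 2274 without it) and 2 for LPS in KD (2238 genes, 1835 without it). Per kilobase of the longest transcript, scramble levels were 3 for PRL, 12.5 for STAT5A, 10.6 for STAT5B, 9 for SOCS2 and 0.23 for CISH. Few counts limit PRLR and CISH, at 5 to 84 per library.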
